A study of Mus musculus with 4 samples.

Results

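Proliferin genes encode secreted hormones of the prolactin family, and 3 copies of them, Prl2c2, Prl2c3 and Prl2c5, had a row in a table of 24689 mouse genes measured by RNA sequencing. They were found by symbol, as every row that begins with Prl2c followed by a digit, and the family itself was selected on its difference between the study's groups in these same libraries. That difference is therefore given as a description, with no test. Of the 3 copies, 2 reached the minimum mean of 1 CPM (counts scaled by library total) set for testing, and Prl2c5 did not.

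The libraries came from HT-22, an immortalized mouse hippocampal neuronal cell line, at passages 21 to 24. There were 2 libraries from control cells, called uninduced in one label and wild type in another, and 2 from cells in which Pja2, a gene for a RING-type E3 ubiquitin ligase, was induced. The means of induction and whether both groups derive from 1 line were not given. No label says whether replicates were separate cultures, so each p-value reflects only the spread between these samples, which may be technical.

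Proliferins are glycoprotein hormones best known from the trophoblast giant cells of the mouse placenta and from growing mouse fibroblast lines, where serum, growth factors and phorbol esters raise their messenger RNA. The secreted proteins carry mannose 6-phosphate and bind the mannose 6-phosphate receptor Igf2r, and they promote the migration of endothelial cells and the growth of blood vessels. The mouse genome holds a large cluster of prolactin family genes on chromosome 13, most of them active in the placenta.

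The depth was 25787452 and 31010351 reads for control replicates 1 and 2 and 30080376 and 35262653 for induced replicates 1 and 2. Values below are normalized reads, that is reads scaled between libraries by the submitters, unless another scale is named. The labels were checked with Pja2 itself, at 6167 and 5881 normalized reads in control replicates 1 and 2 and 54830 and 54244 in induced replicates 1 and 2. Over all 13276 genes tested, limma with Benjamini-Hochberg adjustment called 3.42% at an adjusted p below 0.05, 2.08% higher and 1.34% lower in induced cells. The median log2 difference was 0.00.

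The copies are shown first as sequence, because how alike they are sets what their separate read counts can mean. In GENCODE M21 the coding sequences of Prl2c2 and Prl2c3 are both 672 bases long and differ by 3 substitutions, T14C, C200A and T319G, written with the base of Prl2c2 first and with positions counted from the A of the start codon. Each of the 3 changes the encoded residue. The windows below surround the second and the last of these positions, and capitals mark every base that differs among the 3 copies. Bases 170 to 230 read as follows.
Prl2c2: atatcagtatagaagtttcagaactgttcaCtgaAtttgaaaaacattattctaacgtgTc
Prl2c3: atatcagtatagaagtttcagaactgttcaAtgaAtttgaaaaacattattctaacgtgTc
Prl2c5: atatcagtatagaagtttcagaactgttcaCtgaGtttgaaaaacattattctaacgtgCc
Bases 289 to 349 hold 6 differing positions, of which only 1 separates Prl2c2 from Prl2c3.
Prl2c2: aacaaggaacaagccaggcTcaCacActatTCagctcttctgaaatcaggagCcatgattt
Prl2c3: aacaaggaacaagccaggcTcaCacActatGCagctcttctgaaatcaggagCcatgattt
Prl2c5: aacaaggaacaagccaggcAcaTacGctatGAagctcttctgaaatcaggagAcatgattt

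Prl2c5 is the more distant copy. Its coding sequence has 666 bases and differs from that of Prl2c2 by 20 substitutions and 6 gap bases (96.1% identity), and from that of Prl2c3 by 21 and 6 (96.0%). Prl2c2 and Prl2c3 are 99.6% identical. The substitution T319G separates Prl2c2 from both other copies, while T14C and C200A separate it from Prl2c3 alone.

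**Figure D1:**
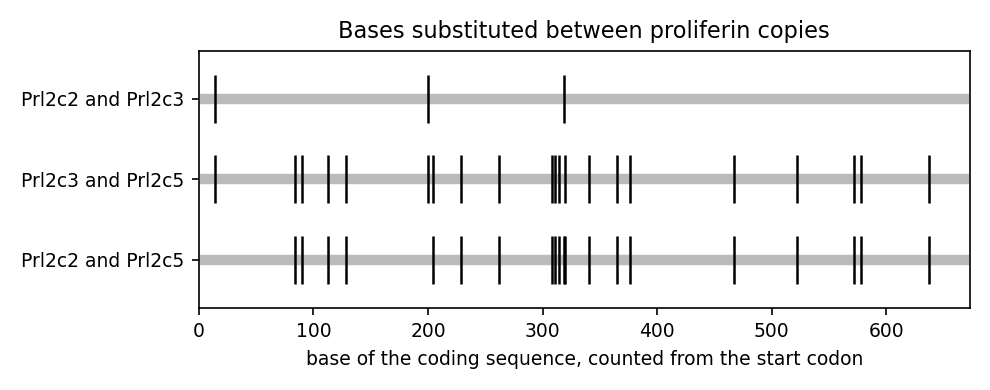
Positions of the bases substituted between each pair of proliferin copies, along the coding sequence (x axis, bases from the start codon; gap bases are not drawn). Prl2c2 and Prl2c3 differ at 3 positions, and Prl2c5 differs from them at 20 and 21.

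Few stretches of the Prl2c2 transcript belong to it alone. Of the 793 words of 50 bases in its longest GENCODE transcript, 83 (10.5%) occurred in no other gene's transcripts and 635 (80.1%) also occurred in Prl2c3. For Prl2c3 the words found nowhere else were 173 of 808 (21.4%). For Prl2c5 they were 488 of 795 (61.4%), taken from its first GENCODE transcript and not from its longest, of 971 bases. With words of 100 bases the shares were 33.6%, 37.7% and 91.3%. The read length, and how reads that match several copies were counted, were not given. The split of reads between Prl2c2 and Prl2c3 is thus uncertain, and the sum over the copies is given beside them. The transcripts also share words with Prl2c1 and the predicted gene Gm7040, which were not analysed here.

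Prl2c2 (ENSMUSG00000079092) was the most abundant copy. It had 2746 and 4590 normalized reads in control replicates 1 and 2, and 9506 and 8959 in induced replicates 1 and 2. Both induced libraries lay above both controls, and the 2 controls lay further apart than the 2 induced libraries. The means were 3668 ± 1303 in controls and 9232 ± 387 in induced cells (SD, n = 2 each), a ratio of 2.52. The log2 difference was 1.38 with a standard error of 0.23, and it lay between 1.01 and 1.75 when each library was left out in turn.

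Prl2c3 (ENSMUSG00000056457) followed the same order of libraries at a lower level. Its values were 1246 and 1981 normalized reads in the controls, against 3791 and 3487 in the induced cells. The groups again did not overlap, and control replicate 1 was again the lowest. The means were 1614 ± 520 and 3639 ± 215 (SD, n = 2 each), a ratio of 2.26, and the log2 difference was 1.21 with a standard error of 0.21 (0.88 to 1.54 with each library left out).

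Prl2c5 (ENSMUSG00000055360) was nearly silent by comparison. It had 5.03 and 17.9 normalized reads in the controls, against 13.0 and 19.5 in the induced cells, from 4, 17, 12 and 21 recovered reads. The groups overlapped, as control replicate 2 lay above induced replicate 1. Its log2 difference of 0.67 turned to -0.16 without control replicate 1, so no direction is drawn for this copy.

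**Figure D2:**
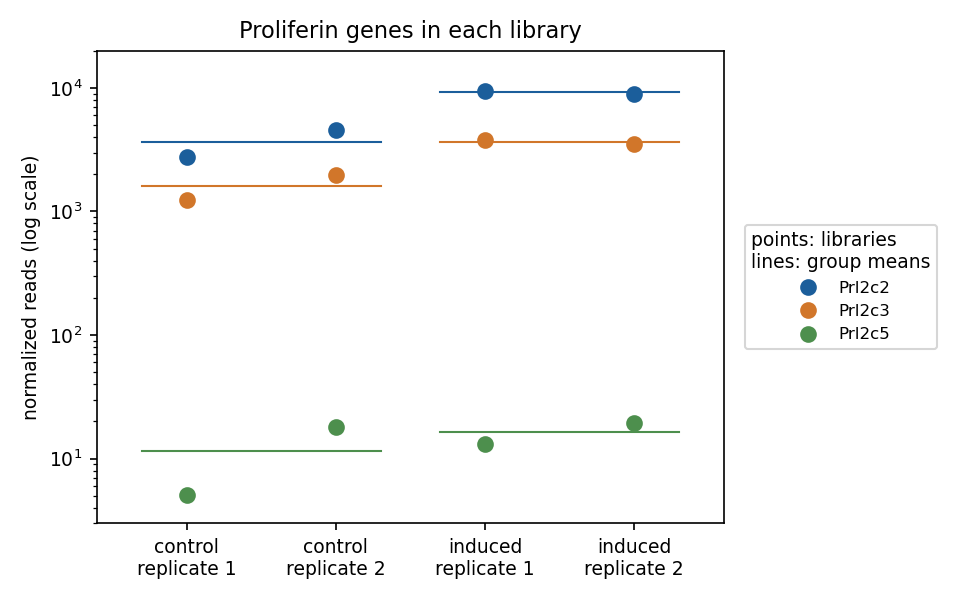
Normalized reads of the 3 proliferin genes in each library (log axis; points are libraries, lines are group means of 2 libraries). Prl2c2 and Prl2c3 lie higher in both induced libraries than in either control, and Prl2c5 stays between 5.03 and 19.5 with overlapping groups.

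Summed over the copies, the libraries held 3998 and 6588 normalized reads in the controls, against 13310 and 12465 in the induced cells. The sum sets aside how reads were divided among these 3 only if each shared read was counted once. Whether it was is not given. The induced libraries again lay above both controls. The lowest induced library stood 1.89 times above the highest control, and the highest induced library 3.33 times above the lowest control. The ratio of means was 2.43. In CPM the sums were 123 and 202 in control replicates 1 and 2 and 407 and 381 in induced replicates 1 and 2. Of the 3 copies, 2 had induced libraries that both exceeded both controls, as had 26.2% of all genes tested, and nothing is read from this count because the genes were chosen for the difference. By size of log2 difference Prl2c2 ranked 70 and Prl2c3 ranked 95 of 13276 genes. In bulk RNA, more cells with proliferin transcripts and more transcripts per cell cannot be told apart.

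The 2 controls lay apart for both abundant copies, in values that also entered the difference by which the genes were chosen, so the gap is a description. Control replicate 2 exceeded control replicate 1 by 1.67 times for Prl2c2 (exact 95% interval 1.59 to 1.76, counting error only) and by 1.59 times for Prl2c3 (1.47 to 1.72). Among 6630 genes with a mean of at least 1000 normalized reads, the median log2 gap between the controls was 0.09, against 0.74 for Prl2c2 and 0.67 for Prl2c3. Only 1.24% of those genes had a wider gap than Prl2c2 and 1.49% a wider gap than Prl2c3.

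The 2 induced libraries differed less. Induced replicate 1 exceeded induced replicate 2 by 1.06 times for Prl2c2 (1.03 to 1.09) and by 1.09 times for Prl2c3 (1.04 to 1.14). Their log2 gaps of 0.09 and 0.12 were exceeded by 44.6% and 28.8% of the genes above that floor, whose median gap was 0.08. For Prl2c5 the ratio of the controls was 3.56 with an interval of 1.16 to 14.5, and that of the induced libraries 0.670 with an interval of 0.301 to 1.43, which spans 1. Its depth allows no closer comparison.

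The division of reads between the copies also shifted slightly. Prl2c2 took 68.7% (exact binomial 95% interval 67.1 to 70.3) and 69.7% (68.5 to 70.8) of all proliferin reads in the controls, against 71.4% (70.6 to 72.2) and 71.9% (71.1 to 72.6) in the induced cells. Its share was higher in both induced libraries, by 2.46 percentage points between group means, although the intervals of control replicate 2 and induced replicate 1 touched. Prl2c3 took 31.2% and 30.1% in the controls, against 28.5% and 28.0% in the induced cells, a difference of -2.39 percentage points between group means. Prl2c5 took 0.126%, 0.272%, 0.0980% and 0.156% in the same order of libraries. Intervals cover counting error only, and because most stretches of the transcripts are shared, the shares also depend on the counting that the submitters used.

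**Figure D3:**
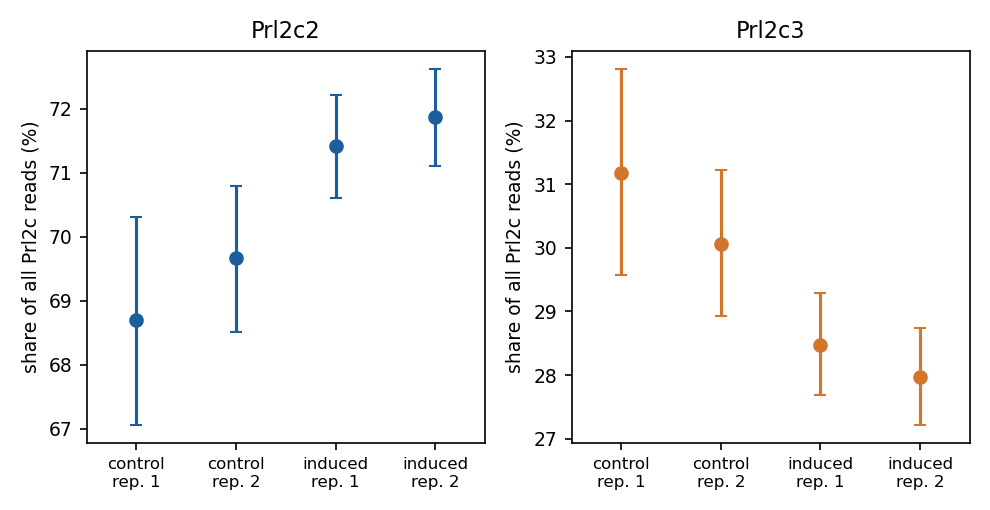
Share of all proliferin reads assigned to Prl2c2 (left) and Prl2c3 (right) in each library, in percent; bars are exact 95% binomial intervals, and the 2 axes do not start at 0. The Prl2c2 share runs from 68.7% in control replicate 1 to 71.9% in induced replicate 2.

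As CPM per kilobase of the longest transcript, Prl2c2 stood at 101 and 167 in the controls, against 345 and 325 in the induced cells. On that scale it ranked 574 and 343 among 24591 genes with a known length in control libraries, and 162 and 166 in induced ones. Proliferin transcripts were thus among the more abundant messenger RNAs of both groups. Prl2c3 stood at 44.8 and 70.8 in the controls, against 135 and 124 in the induced cells, with ranks of 1495, 897, 432 and 466. Prl2c5 stood between 0.160 and 0.613, with ranks from 13756 to 17289.

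Of the labelled cell type, 11 of 18 listed neuronal markers had a row and 3 reached the filter, namely Tubb3, Syn1 and Camk2a. Syp, Stmn2, Nefl, Elavl3, Dcx, Gria1, Slc17a7 and Prox1 lay under the filter. The neuronal list summed to 1749 to 1996 normalized reads in every library, while Rbfox3, Map2 and Snap25 had no row and were not analysed here. Astrocyte markers summed to 4064 to 5328 normalized reads, and of 7 listed 3 were tested, Slc1a3, Aldh1l1 and Sox9. Gfap, Slc1a2 and S100b lay under the filter. Microglia markers summed to 1659 to 2250, and of 7 listed 2 were tested, Tmem119 and Aif1. Cx3cr1, Csf1r, Itgam and Ptprc lay under the filter. Collagen-rich fibroblast markers summed to 376590 and 327959 normalized reads in the controls, against 319976 and 320634 in the induced cells. Of 10 listed, 8 were tested. By limma 0 were called higher and 2 lower, Col3a1 and Dcn, against 2.08% and 1.34% of all genes. Col1a1, Col1a2, Pdgfra, Pdgfrb, Thy1 and Postn were tested and not called. The sum of that list lay below the controls where the proliferin genes lay above them, and the list's part in the result was not tested. Col3a1 alone went from 81869 and 68553 normalized reads in the controls to 47479 and 48561 in the induced cells. Of 18 trophoblast markers listed, 5 had a row, and these summed to 31.6 to 64.1 normalized reads. Only Syna was tested, and Eomes, Elf5, Krt7 and Krt8 lay under the filter. The other trophoblast markers had no row and were not analysed here.

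Of 22 other prolactin family genes listed, 2 had a row, both with few reads, and the rest were not analysed here. Prl7a1 had 4, 3, 2 and 3 reads in control replicates 1 and 2 and induced replicates 1 and 2, and Prl7c1 had 0, 0, 0 and 3. Neither was tested. Prlr, the prolactin receptor gene, had 5 reads in induced replicate 1 and 0 in the other libraries, where a count of 0 allows up to 3 reads. Among the prolactin genes with a row, only the proliferin copies Prl2c2 and Prl2c3 were thus expressed above the filter.

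Promoter sequence was compared between copies, and whether it bears on their levels was not tested. RefSeq promoter entries matched 2 of the 3 copies, Prl2c3 and Prl2c5, and none was matched for Prl2c2. The 250 bases before each start are printed on the gene's strand from GRCm38.p6, while the deposited values rest on mm9. Capitals mark matches to TGANTCA, a loosened pattern of the AP-1 element that allows any middle base, and to the TATA element TATANAA.
Prl2c3, chr13:12800080-12800329, minus strand: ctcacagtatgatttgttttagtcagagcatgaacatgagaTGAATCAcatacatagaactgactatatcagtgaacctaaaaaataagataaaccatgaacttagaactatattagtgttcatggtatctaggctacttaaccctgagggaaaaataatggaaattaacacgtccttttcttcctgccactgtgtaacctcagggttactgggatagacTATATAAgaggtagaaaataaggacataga
Prl2c5, chr13:13182466-13182715, plus strand: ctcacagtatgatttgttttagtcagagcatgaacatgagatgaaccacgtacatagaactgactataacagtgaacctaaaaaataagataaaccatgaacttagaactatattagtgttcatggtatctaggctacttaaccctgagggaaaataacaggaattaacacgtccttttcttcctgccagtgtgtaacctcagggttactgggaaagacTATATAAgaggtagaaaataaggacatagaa

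The windows were identical at 241 of 251 aligned columns (96.0%), with 8 substitutions and 2 gap bases. Prl2c3 held 1 match to TGANTCA, starting 209 bases before the gene's start, and Prl2c5 held 0. The match reads TGAATCA, so it is a match to the loosened pattern only. The substitution T46C, counted from the 5′ end of the Prl2c3 window, lies within that match. On either strand 2217 of 32851 RefSeq promoter windows (6.75%) held TGANTCA. The TATA element occurred once in each copy's window, 30 and 31 bases before the start, and in 10.4% of all windows. The cAMP response element TGACGTCA (1.55% of windows) occurred in neither copy, nor did the CCAAT element CCAAT (33.8%). A match of letters is a description and not a measured binding site.

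By the gene order of RefSeq GRCm38.p6, Prl2c3, Prl2c2 and Prl2c5 were adjacent among the genes of the table on chromosome 13. The 10 nearest genes of the table on each side gave 17 tested genes, of which 1 was called higher and 0 lower by limma, against 2.08% and 1.34% of all genes. At an unadjusted p under 0.05 limma placed 5 higher and 1 lower, against 10.3% and 8.78% of all genes, and limma voom on the recovered reads again called 0 lower. Their median log2 difference was 0.04. The gene called was Nid1, for the basement membrane protein nidogen, with 32201 and 31461 normalized reads in controls and 41245 and 43140 in induced cells. The groups did not overlap, the log2 difference was 0.41 with a standard error of 0.06, and limma's adjusted p was 0.0306, which moved to between 0.0641 and 0.162 when a library was left out, so that its call ended whichever library that was.

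The genes directly beside the run were Gm2399, next to Prl2c3, and Gm2423, next to Prl2c5, both predicted genes and named here after their values were seen. Gm2399 had 54.1 and 63.2 normalized reads in controls and 85.9 and 100.2 in induced cells. Its groups did not overlap, and its log2 difference of 0.66 was the highest of the 17 neighbours, with limma's adjusted p at 0.215. Gm2423 had a log2 difference of 0.13 with limma's adjusted p at 0.441. Gpr137b, for a lysosomal membrane protein, had 4215 and 4832 normalized reads in controls and 5958 and 5979 in induced cells, a log2 difference of 0.40 with limma's adjusted p at 0.0650, and at 0.0404 without control replicate 2. Zmynd11, for a chromatin reader and among the farther neighbours, had a log2 difference of 0.06 (limma's adjusted p 0.873), with overlapping groups. Over the 17 neighbours the log2 differences ran from -0.31 to 0.66.

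Genes whose 4 values ran most like those of Prl2c2 were ranked by the Euclidean distance between log2 values, each gene centred on its own mean over the 4 libraries. They share the libraries, and the ranking selects for the difference, so no test is given. Prl2c3 came first of 13275 genes, at a distance of 0.177, against a median of 1.49. Mbp, for myelin basic protein, followed at 0.214 with 21.4 and 33.7 normalized reads in controls and 62.0 and 64.9 in induced cells. Areg, for the growth factor amphiregulin, came next at 0.217 with 16.3 and 29.5 in controls and 52.2 and 49.2 in induced cells. Oasl1, an interferon-responsive gene, stood at 0.235 (28.9 and 42.1 against 104 and 104), and the predicted gene Gm9788 at 0.301 (26.4 and 42.1 against 70.7 and 79.8). All 4 genes after Prl2c3 shared its lower control replicate 1, which the ranking also selects for. Their levels were far below those of the proliferin genes.

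**Figure D4:**
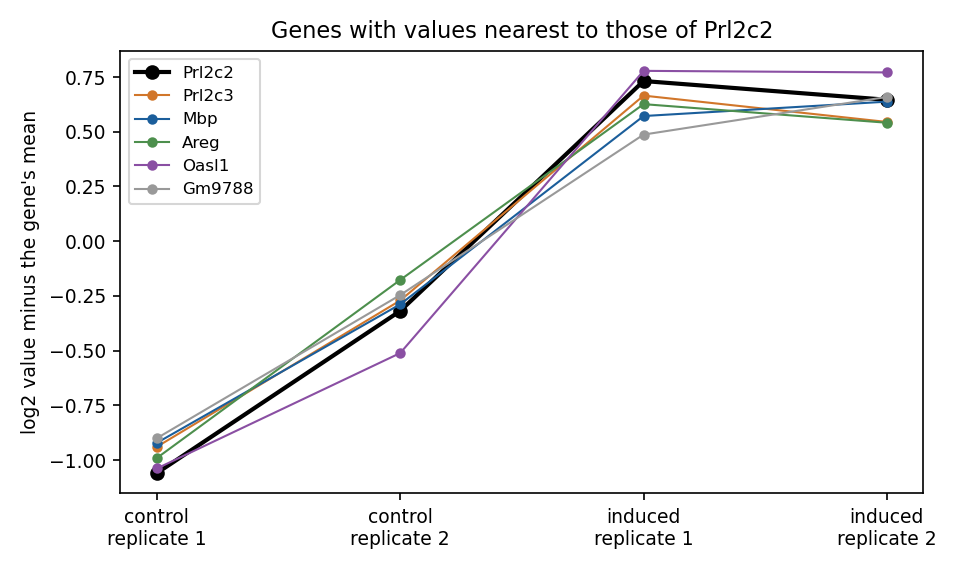
Log2 values of Prl2c2 and of the 5 genes nearest to it, each minus the gene's own mean, in the 4 libraries; lines join the values of 1 gene and imply no order. The 6 genes share a low control replicate 1 and similar induced libraries, features that the ranking selects for.

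Receptors and their signalling came from a list on the prolactin and growth hormone receptors, with 17 of 20 genes tested. Of these 0 were called higher and 1 lower by limma, against 2.08% and 1.34% of all genes, and the median log2 difference was 0.03. At an unadjusted p under 0.05 limma placed 2 higher and 1 lower, against 10.3% and 8.78% of all genes. In the same list limma voom on the recovered reads also called 0 higher, and limma called 1 higher without control replicate 1. Ghr, the growth hormone receptor gene, fell from 2652 and 2419 normalized reads in controls to 1693 and 1637 in induced cells. Its groups did not overlap, and its log2 difference was -0.61 with a standard error of 0.08 (limma's adjusted p 0.0226, and 0.0336 to 0.0703 with a library left out). Ptpn11, for the tyrosine phosphatase Shp2, and Shc1, for an adaptor protein, had log2 differences of 0.09 and -0.03 with limma's adjusted p at 0.566 and 0.812.

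The mannose 6-phosphate receptor and insulin-like growth factor list had 15 of 21 genes tested, with 2 called higher and 1 lower by limma, against 2.08% and 1.34% of all genes, and a median log2 difference of 0.13. At an unadjusted p under 0.05 limma placed 4 higher and 2 lower, against 10.3% and 8.78% of all genes. Igf2r, the gene for the receptor that binds proliferins, had 767 and 772 normalized reads in controls and 605 and 593 in induced cells. The groups did not overlap, but the log2 difference of -0.36 did not pass (limma's adjusted p 0.112). Nagpa, for the enzyme that uncovers the mannose 6-phosphate tag in the Golgi, rose from 181 and 224 normalized reads to 498 and 424. Its log2 difference was 1.18 with a standard error of 0.17 (limma's adjusted p 0.0267, and 0.0352 to 0.0795 with a library left out).

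Igfbp7, for a secreted binding protein, rose from 2548 and 2537 normalized reads to 4182 and 4071, a log2 difference of 0.70 with limma's adjusted p at 0.00908, and its exons overlap those of Polr2b on the opposite strand, from which reads cannot be told apart. Irs1, for an insulin receptor substrate, fell from 1545 and 1452 to 968 and 1044. Its log2 difference of -0.58 had an adjusted p of 0.0312 by limma, and of 0.0620 to 0.106 with a library left out. Igfbp6 and Igf2bp2, the most abundant of the others, had log2 differences of -0.02 and 0.27 with limma's adjusted p at 0.905 and 0.0771.

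AP-1 is a pair of Fos and Jun family proteins that mediates responses to growth factors and phorbol esters. Its list, with other growth-response factors, had 20 of 25 genes tested, with 1 called higher and 1 lower by limma, against 2.08% and 1.34% of all genes, and a median log2 difference of -0.02. At an unadjusted p under 0.05 limma placed 4 higher and 2 lower, against 10.3% and 8.78% of all genes. Junb, a Jun family gene, rose from 1291 and 1415 normalized reads to 2269 and 2075, with no overlap between groups. Its log2 difference was 0.68 with a standard error of 0.09 (limma's adjusted p 0.0226, and 0.0352 to 0.0648 with a library left out), and its exons overlap those of Prdx2 on the opposite strand.

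Egr1, an early growth-response gene, fell from 2496 and 2682 normalized reads to 1806 and 1641. Its log2 difference of -0.59 had an adjusted p of 0.0280 by limma, and of 0.0368 to 0.0873 with a library left out. The other Fos and Jun genes, named here after their values were seen, did not pass. Fosl1 had a log2 difference of 0.34, Fosl2 of 0.27, Jun of -0.05 and Fos of -0.23. Sp1 and Nfe2l2, the most abundant of the others, had -0.07 and 0.19.

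Secreted genes known to respond to growth factors or phorbol esters formed the list with the most calls, 5 higher and 1 lower of 20 tested (26 listed), against 2.08% and 1.34% of all genes. Its median log2 difference was 0.28, against 0.00 over all genes, with 14 members above 0 and 6 below. Because the lists were chosen with earlier results of these data known, these counts are a description. At an unadjusted p under 0.05 limma placed 11 higher and 2 lower, against 10.3% and 8.78% of all genes. Only 3 were called higher when any 1 library was left out. Ereg, for the growth factor epiregulin, rose from 250 and 269 normalized reads to 605 and 713, with no overlap between groups. Its log2 difference was 1.34 with a standard error of 0.13 (limma's adjusted p 0.0105).

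Lif, a cytokine gene, rose from 362 and 372 normalized reads to 558 and 590 (log2 difference 0.64, limma's adjusted p 0.0399, and 0.0865 to 0.187 with a library left out). Cxcl5, a chemokine gene, and Timp1, for an inhibitor of metalloproteinases, named after their values were seen, rose by log2 differences of 0.57 and 0.45 with limma's adjusted p at 0.0121 and 0.0467. Timp1 reached 0.183 with a library left out. Plau, for the plasminogen activator urokinase, fell from 933 and 840 to 576 and 550, a log2 difference of -0.65 with limma's adjusted p at 0.0347, and 0.0581 to 0.117 with a library left out. Lgals1 and Sparc, the most abundant of the others, had log2 differences of -0.05 and -0.14 (limma's adjusted p 0.792 and 0.295).

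Angiogenesis regulators, the field in which proliferins are best known, had 23 of 30 genes tested, with 2 called higher and 2 lower by limma, against 2.08% and 1.34% of all genes, and a median log2 difference of 0.03. Sema3c, for a secreted semaphorin, rose from 1324 and 899 normalized reads to 7625 and 7427. That difference of 2.78 on the log2 scale, with a standard error of 0.18 and limma's adjusted p at 0.00404, exceeded the 1.38 of Prl2c2 on the same scale. Vegfd, a vascular endothelial growth factor gene, rose from 2388 and 2293 to 3401 and 3294 (log2 difference 0.52, limma's adjusted p 0.0226, and 0.0444 to 0.0795 with a library left out).

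Ctgf and Cyr61, for matricellular proteins of the CCN family, fell. Ctgf went from 3135 and 2842 normalized reads to 1788 and 1955, with a log2 difference of -0.67 (limma's adjusted p 0.0223, and 0.0314 to 0.0553 with a library left out). Cyr61 went from 2364 and 2580 to 1500 and 1684, with a log2 difference of -0.64 (limma's adjusted p 0.0281, and 0.0355 to 0.0734 with a library left out). Neither gene's groups overlapped. Thbs2, for thrombospondin 2, and Nrp2, for a semaphorin receptor, had log2 differences of 0.21 and 0.32 with limma's adjusted p at 0.262 and 0.0587. At an unadjusted p under 0.05 limma placed 7 of the angiogenesis regulators higher and 3 lower, against 10.3% and 8.78% of all genes.

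**Figure D5:**
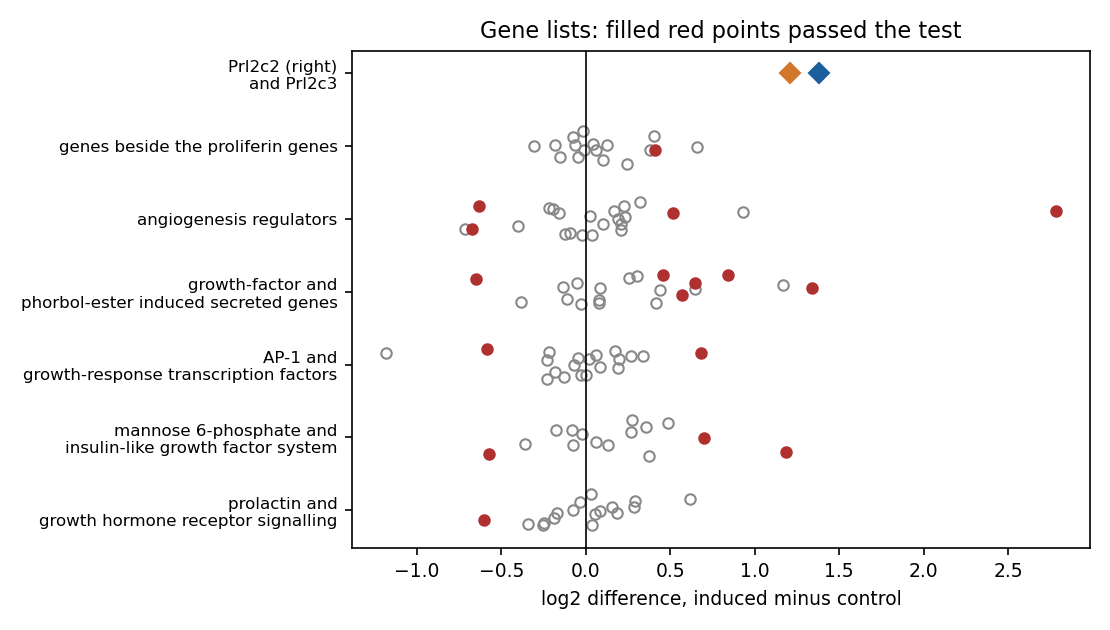
Log2 difference, induced minus control, of every tested gene in the 5 pathway lists and among the chromosomal neighbours (circles; filled red circles passed limma's test, and height within a row only separates points). Diamonds mark Prl2c2 at 1.38 and Prl2c3 at 1.21, which were chosen for this difference and are shown without a test.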

How the data were processed

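RNA was extracted with Trizol and made into libraries with TruSeq reagents that leave the strand unmarked, per the labels' protocols. The submitters' processing notes name HISAT, Cufflinks and mm9, without versions. No counting tool was given. The deposited values are log2(normalized reads + 1). This was read from the numbers: undone from that scale, 100% were whole multiples of 1 step per library (tolerance 0.01), so whole reads were recovered. Library totals of 25787452 to 35262653 reads bound the precision.

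The deposited log2 values were fitted with limma 3.58.1 in R 4.3.3, with a trend, 2 groups and no covariate, over 13276 genes whose mean reached 1 CPM. Benjamini-Hochberg adjustment ran over all of them, two-sided, at 0.05. The members and lists were chosen with earlier results of these data known. Of each list the text names up to 4 called members, by log2 difference, and the 2 most abundant of the others, with Pja2, Igf2r and Prlr whatever their values, and the 5 genes nearest to Prl2c2. Of the secreted list, 1 called gene is counted but not reported here. Alternatives were 2 other pseudocounts, 2 other filters, CPM scaling, limma voom with TMM scaling on recovered reads, a replicate block and each library left out. Scripts were tested on simulated data.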

Additional observations from a re-analysis of the deposited data

How the results depend on the processing

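No pseudocount, scaling, voom fit or stricter filter moved a count of calls by over 1.5 times or changed the direction of a proliferin gene. Without a filter on low values, 100 genes were called higher and 59 lower, against 276 and 178. Leaving out a library gave 113 to 204 higher and 78 to 136 lower. The labels' replicate numbers pair only 2 libraries with 2, and deviations of same-numbered libraries correlated at -0.095 over genes. A correlation over all genes cannot show whether some of them share a replicate effect, so whether same-numbered libraries shared a batch cannot be told. With the replicate number as a block, 157 were called higher and 104 lower. List counts moved too. Without the filter, 3 secreted genes, 1 of the mannose 6-phosphate list and 1 angiogenesis regulator were called higher, and 0 in every other list and direction. With the block the secreted list had 3 higher and 0 lower, the mannose 6-phosphate and AP-1 lists 0 lower, and the neighbours 0 higher. With a library left out, calls were 0 to 1 higher and 0 to 1 lower for receptor signalling and for AP-1, 1 to 3 higher and 0 lower for mannose 6-phosphate, 3 higher and 0 lower for secreted genes, 1 to 3 higher and 0 to 2 lower for angiogenesis, and 0 to 1 higher for neighbours. The log2 difference of Prl2c5 ran from -0.16 to 1.49. Of the genes named by the stated rule, left-out libraries turned 3, none of them called. Igfbp6 ran from -0.087 to 0.046, Lgals1 from -0.16 to 0.059 and Zmynd11 from -0.12 to 0.24. Jun, named after its values were seen and not called, also turned, running from -0.13 to 0.030. Of 17 called genes picked by the stated rule, 5 held their call in every alternative, among them Igfbp7, Ereg, Sema3c and Pja2. Called genes named outside that rule are not in this count. With 2 libraries a group and 2 residual degrees of freedom, single libraries decide many calls, and depth limits Prl2c5.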
